A study of Mus musculus with 6 samples.

Results

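The transcripts described here are those of 10 genes that link the sensing of glucose to the uptake of glucose and the export of lactate. They were taken by name from the 23349 genes of the deposited table. They are the arrestin-like genes Txnip and Arrdc4, the transcription factor genes Mlx, Mlxip and Mlxipl, the glucose transporter genes Slc2a1 and Slc2a3, the lactate transporter genes Slc16a1 and Slc16a3, and Bsg, which encodes basigin. The names were chosen from results that included the difference in TPM between induced and basal cells. The values of that difference are therefore given as a description of these genes, and no independent support is drawn from any p-value printed for them.

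The cells were AtT-20 cells, a mouse corticotrope tumour line, in a version called iPAM whose expression of PAM is raised by doxycycline. PAM, peptidylglycine alpha-amidating monooxygenase, amidates the ends of peptides in the secretory pathway. The 3 induced libraries are from cells kept for 48 h in 4 micrograms of doxycycline per ml, and the 3 basal libraries from the same line at its basal level of PAM. Both groups were passaged in DMEM-F12 medium containing 10% serum, antibiotics, G418 and hygromycin, and RNA was taken from dense wells. The drug and the rise in PAM always occur together here and cannot be told apart. The labels say neither whether the line is 1 clone nor whether replicate libraries had cultures of their own, so each p-value measures a spread between libraries that may be technical.

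In many cells MondoA (the product of Mlxip) and ChREBP (the product of Mlxipl) pair with Mlx and, when sugar phosphates build up, switch on Txnip and Arrdc4. The arrestin TXNIP lowers glucose uptake by promoting the removal of glucose transporters, among them GLUT1, from the cell surface, and it also binds thioredoxin. Lactate made from glucose leaves the cell through the monocarboxylate transporters MCT1 (Slc16a1) and MCT4 (Slc16a3), which need the membrane glycoprotein basigin to reach the surface.

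The promoters of the pair of arrestin genes are shown because Mondo and Mlx factors are known to act there and because both transcripts were lower in induced cells. The sequences are the 250 bases before the RefSeq start site, 5′ to 3′ on the gene's strand (build GRCm38.p6). Txnip lies at chr3:96557707-96557956 on the plus strand and Arrdc4 at chr7:68749239-68749488 on the minus strand. Capitals mark CCAAT on either strand (read as ATTGG on the other), the E-box CACGTG, and the half-site CACGAG where it occurs as a pair with 5 bases between.
Txnip: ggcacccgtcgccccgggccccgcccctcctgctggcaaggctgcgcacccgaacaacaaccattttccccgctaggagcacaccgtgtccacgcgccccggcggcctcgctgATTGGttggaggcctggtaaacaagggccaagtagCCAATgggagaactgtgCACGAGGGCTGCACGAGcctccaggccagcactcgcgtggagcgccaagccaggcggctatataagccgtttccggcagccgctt
Arrdc4: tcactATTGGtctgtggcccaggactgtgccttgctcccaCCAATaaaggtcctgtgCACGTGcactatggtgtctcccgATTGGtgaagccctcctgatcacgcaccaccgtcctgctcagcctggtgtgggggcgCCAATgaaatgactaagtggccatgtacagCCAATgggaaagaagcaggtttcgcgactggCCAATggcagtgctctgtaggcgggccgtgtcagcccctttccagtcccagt

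In Txnip the spaced pair of half-sites runs from 85 to 69 bases before the start site, with CCAAT matches beginning 102 and 137 bases before it. This spaced pattern was written down from the Txnip sequence itself, and among 32841 mouse promoter windows of the same length only 1, that of Txnip, held it. Arrdc4 held the E-box CACGTG once, from 193 to 188 bases before its start site, and CCAAT at 6 places. Over all windows, searched on both strands, 6.02% held CACGTG at least once, 33.9% held CCAAT at least once and 2.79% held CCAAT 3 times or more. Promoter entries were found for 8 of the 10 genes. Slc2a3 and Bsg had none, so their promoters were not searched. CACGTG also occurred once in the windows of Mlx and Slc16a1 and once in 1 of the 2 windows of Mlxipl, genes that did not pass the threshold described next. These matches describe letters in a window and do not show that a factor was bound.

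Pam, the induced gene, checks the labels. Pam had 507, 399 and 258 TPM (transcripts per 1000000, the level rescaled to that total in each library) in induced cells, against 92.6, 82.8 and 66.9 TPM in basal cells. The induced level was higher in all 3 libraries. The labels give 16.6 M reads per library, the deposited values keep no depth, and 14491 to 15098 genes were above 0 in a library. The corticotrope markers were present, with the 5 genes Pomc, Tbx19, Crhr1, Pcsk1 and Neurod1 summing to between 21511 and 30450 TPM in induced and between 23089 and 32063 TPM in basal libraries. The 8 markers of other pituitary cells summed to between 0.338 and 0.855 TPM in induced libraries and to 0.998 TPM or more in basal libraries, none reaching the level tested, with Tshb, Fshb and Pou1f1 at 0 throughout. The 4 fibroblast markers summed to between 1.33 and 1.76 TPM in induced and between 2.57 and 4.03 TPM in basal libraries, with Pdgfra and Dcn at 0. Col1a1 made up most of that sum and was the only one of them tested, at a log2 difference of -0.75 with no overlap between groups (limma adjusted p = 0.127, and 0.0170 with the block). Endothelial markers, 3 in all, summed to between 0.252 and 0.428 TPM in induced and between 0.673 and 0.824 TPM in basal libraries, with Cdh5 and Kdr at 0. The 3 leukocyte markers summed to at most 0.0471 TPM in induced and at most 0.556 TPM in basal libraries. The part of these marker differences in the results below was not tested.

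Txnip, Arrdc4 and Bsg were lower in induced cells and passed the threshold. Slc2a1 was lower to a similar extent but did not pass it unless the column number was used as a block or both libraries numbered 3 were left out. The factor genes, Slc2a3 and both lactate transporter genes did not pass. No label pairs the libraries by number, and the block was chosen from these same data. The threshold is an adjusted p of 0.05 in limma, fitted to log2(TPM + 1) over the 12400 genes that averaged 1 TPM or more. All 10 members were tested, 3 fell and 0 rose. Over all genes tested 1.06% were called lower and 0.129% higher by the same rule. With the column number as a block, 4 members fell and 0 rose, where 14% of all genes were called lower and 8.23% higher. The groups did not overlap for 4 members, as they did not for 21.6% of all genes tested. The median log2 difference of the members was -0.16, beside -0.04 over all genes tested. The rule drew on this same contrast, so nothing is read from these shares. In bulk RNA fewer cells of a kind and less RNA per cell cannot be told apart.

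**Figure D1:**
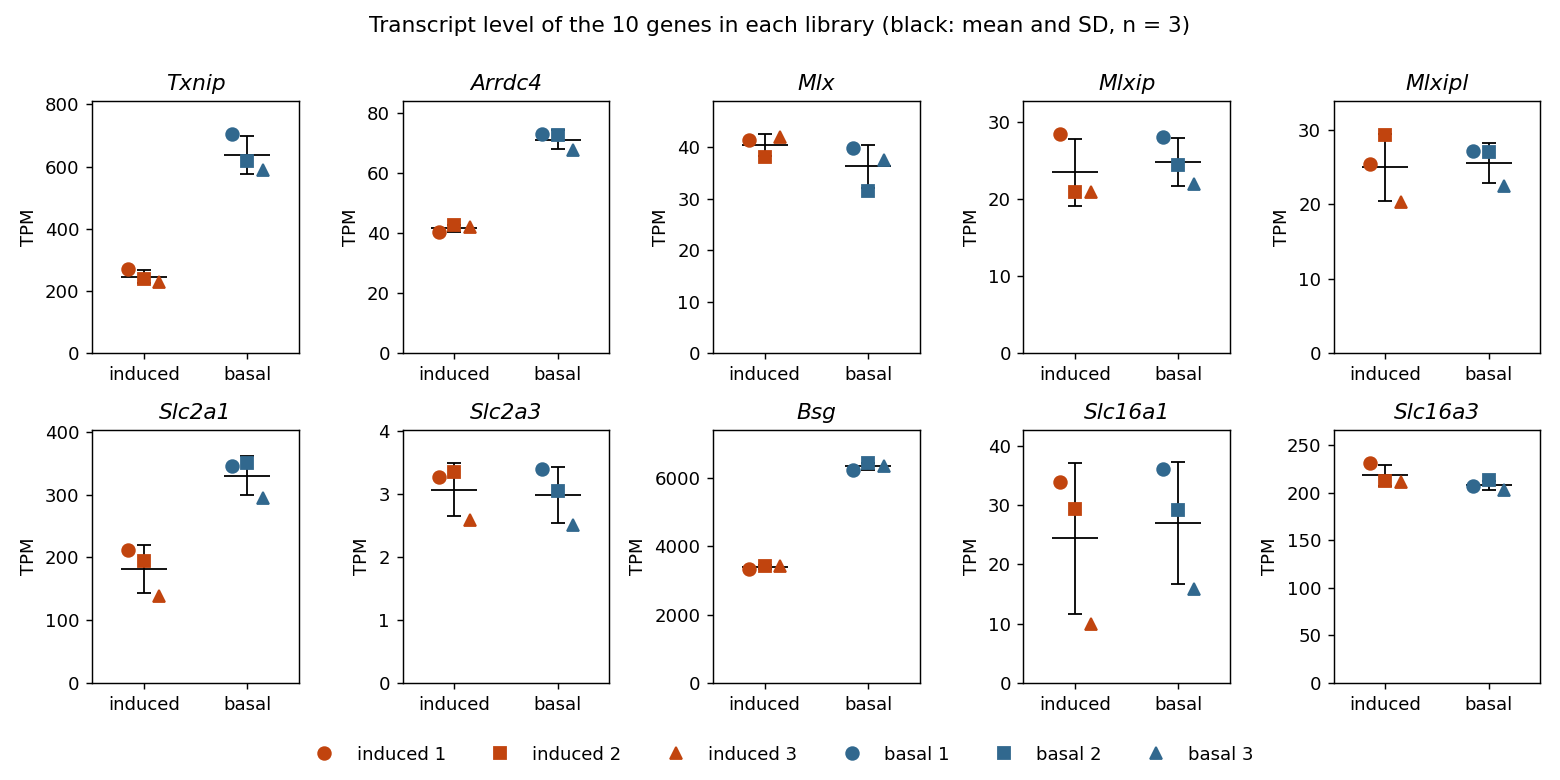
Level in TPM (vertical axes, each starting at 0) of the 10 genes in the 3 induced and 3 basal libraries, with marker shape for the library number and black bars for mean and SD. Txnip, Arrdc4, Slc2a1 and Bsg show no overlap between groups, and Slc16a1 is lowest in the libraries numbered 3 of both groups.

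Txnip, which encodes thioredoxin-interacting protein, was the member with the largest difference. It had 269, 240 and 228 TPM in induced cells, against 706, 619 and 589 TPM in basal cells. Every induced library was far below every basal one. The mean was 246 ± 21.4 TPM in induced and 638 ± 61.0 TPM in basal cells (SD, n = 3 each), which is 2.59-fold lower. On the log2(TPM + 1) scale Txnip fell by 1.37 (SE 0.13; interval at 95% confidence -1.68 to -1.06), with limma adjusted p = 0.0135 over all genes. Of the genes tested, 0.597% had a lower difference. The ratio of induced to basal libraries with the same number was 0.382, 0.388 and 0.387, so the 3 ratios differed far less than the levels did. The call ended when any single library other than induced 3 was left out, at limma adjusted p values of 0.0526 to 0.145 and log2 differences of -1.44 to -1.30. In the mouse genome (mm10, GENCODE vM21 gene ENSMUSG00000038393.14) Txnip lies on the plus strand of chromosome 3, from 96557957 to 96561883. There it shares exon bases with Gm15441, an antisense gene on the other strand. Gm15441 was listed at 1.03, 1.03 and 0.719 TPM in induced cells and at 1.41, 2.30 and 1.85 TPM in basal cells, and whether the authors' counting used strand is not given in the sources used here.

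Arrdc4 encodes an alpha-arrestin related to TXNIP that also limits glucose uptake. It had 40.2, 42.5 and 41.9 TPM in induced cells, against 73.1, 72.5 and 67.6 TPM in basal cells. The groups lay well apart and each was narrow. The mean was 41.5 ± 1.18 TPM in induced and 71.0 ± 3.02 TPM in basal cells (SD, n = 3 each), 1.71-fold lower. Arrdc4 thus fell by 0.76 on the log2 scale (SE 0.12; interval at 95% confidence -1.04 to -0.47), with limma adjusted p = 0.0447, close to the threshold. The call ended after quantile normalization, after rescaling by the median ratio and on the scale of the authors' DESeq2 table, with limma adjusted p of 0.0576, 0.0589 and 0.0875 in that order. It also ended without any single library other than induced 3, with limma adjusted p between 0.149 and 0.265. Arrdc4 (ENSMUSG00000042659.15, mm10 chromosome 7, 68736995 to 68749241, minus strand) shares no exon bases with another gene of GENCODE vM21.

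The genes of the factors that act on Txnip and Arrdc4 showed no such difference. Mlx, the common partner, had 41.5, 38.0 and 42.0 TPM in induced cells and 39.8, 31.6 and 37.5 TPM in basal cells. The groups overlapped, and the log2 difference was 0.16 (95% confidence interval -0.18 to 0.50; limma adjusted p = 0.709). Mlxip, the gene of MondoA, had 28.5, 20.9 and 20.9 TPM in induced cells and 28.0, 24.4 and 21.9 TPM in basal cells, again overlapping. Its log2 difference was -0.08 (95% confidence interval -0.51 to 0.34; limma adjusted p = 0.912). Mlxipl, the gene of ChREBP, had 25.4, 29.3 and 20.3 TPM in induced cells and 27.1, 27.0 and 22.5 TPM in basal cells. Its log2 difference was -0.04 (95% confidence interval -0.46 to 0.38; limma adjusted p = 0.958). The lower limit of each of these intervals lay above the log2 difference of Txnip, which is given as a description. The intervals do not show that the levels were equal, and transcript levels say nothing of where the factors were in the cell. On the scale of the authors' DESeq2 table the signs of Mlxip and Mlxipl turned positive and Mlx passed the threshold upward, as given below. The sign of Mlxipl also turned positive after quantile normalization, where Mlx did not pass (limma adjusted p = 0.584). Mlx (mm10 chromosome 11, 101087277 to 101092207, plus strand) shares exon bases with Psmc3ip on the opposite strand, listed at 52.6, 55.8 and 103 TPM in induced cells and 61.1, 63.7 and 110 TPM in basal cells. Mlxip (chromosome 5, 123394798 to 123457932, plus strand) and Mlxipl (chromosome 5, 135089890 to 135138382, plus strand) share exon bases with Gm15747 and Gm43500, each on the opposite strand.

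Slc2a1 encodes GLUT1, the widespread glucose transporter. It had 212, 193 and 139 TPM in induced cells, against 345, 350 and 294 TPM in basal cells. The groups did not overlap, and the libraries numbered 3 were the lowest of each group. The mean was 181 ± 38.1 TPM in induced and 330 ± 31.0 TPM in basal cells (SD, n = 3 each), or 55.0% of the basal level. Its log2 difference of -0.88 (SE 0.19; interval at 95% confidence -1.31 to -0.44) did not pass in limma (adjusted p = 0.0820). The block brought the SE to 0.09 and the adjusted p of limma to 5.1e-04. Leaving out both libraries numbered 3 also gave a call, at a log2 difference of -0.78 (limma adjusted p = 0.00574). The ratios of same-numbered libraries were 0.614, 0.553 and 0.472. Slc2a1 (mm10 chromosome 4, 119108711 to 119137983, plus strand) shares exon bases with Gm12868 on the other strand. Slc2a3, which encodes the high-affinity neuronal transporter GLUT3, had 3.28, 3.35 and 2.58 TPM in induced cells and 3.40, 3.05 and 2.51 TPM in basal cells. The groups overlapped almost completely, with a log2 difference of 0.03 (95% confidence interval -0.38 to 0.44; limma adjusted p = 0.968). At this level the added 1 shrinks differences. Slc2a3 lies on the minus strand of mm10 chromosome 6, from 122727809 to 122801640.

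**Figure D2:**
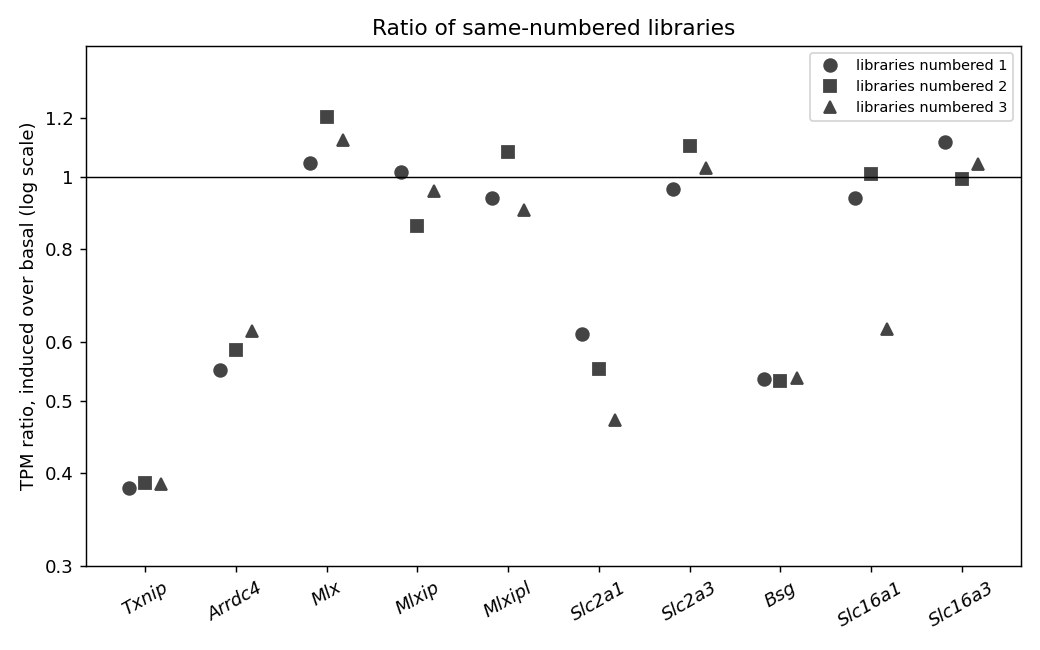
Ratio of TPM in each induced library to the basal library with the same column number (vertical axis, log scale), with 3 points per gene. The ratios of Txnip lie between 0.382 and 0.388 and those of Bsg between 0.533 and 0.537, whereas those of Slc16a1 run from 0.625 to 1.01.

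Bsg, the chaperone of the lactate transporters, was the steadiest member within groups. It had 3342, 3431 and 3413 TPM in induced cells, against 6240, 6443 and 6361 TPM in basal cells. The gap between the groups was many times the spread within either. The mean was 3395 ± 47.1 TPM in induced and 6348 ± 102 TPM in basal cells (SD, n = 3 each), a coefficient of variation of 1.39% in induced and 1.61% in basal libraries. Bsg was thus at 53.5% of its basal level, 1.87-fold lower. Bsg fell by 0.90 on the log2 scale (SE 0.10; interval at 95% confidence -1.13 to -0.67), with limma adjusted p = 0.0181. The call ended after rescaling by the median ratio (limma adjusted p = 0.0508) and with no filter on low values (0.0588). It also ended without any single library other than induced 3 (limma adjusted p between 0.0931 and 0.175), with the log2 difference between -0.91 and -0.89. Bsg (ENSMUSG00000023175.15) lies on the plus strand of mm10 chromosome 10, from 79704491 to 79711969.

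Of the lactate transporter genes, Slc16a3 did not follow Bsg, while in the main fit the interval of Slc16a1 was too wide to tell. Slc16a3, which encodes MCT4, a transporter typical of cells that export lactate, had 231, 212 and 212 TPM in induced cells and 208, 213 and 203 TPM in basal cells. The groups overlapped, and the log2 difference was 0.07 (SE 0.11; interval at 95% confidence -0.20 to 0.34), with limma adjusted p = 0.872. The lower limit of that interval lay above the log2 difference of Bsg, again as a description. Slc16a1, which encodes MCT1, had 33.8, 29.4 and 9.90 TPM in induced cells and 36.1, 29.1 and 15.8 TPM in basal cells. The libraries numbered 3 were the lowest of both groups, and its coefficient of variation was 52.2% in induced and 38.1% in basal libraries, the highest of the members. For Slc16a1 the log2 difference was -0.24 (SE 0.49; interval at 95% confidence -1.39 to 0.92), with limma adjusted p = 0.908, so a fall as large as that of Bsg was within the interval. Under the block the interval narrowed to -0.54 to 0.07 (limma adjusted p = 0.236) and no longer held it. Without induced 3 the log2 difference was 0.29 and without basal 3 it was -0.57, so its sign turned on which of the libraries numbered 3 was kept. Slc16a1 lies on mm10 chromosome 3, from 104638668 to 104658462, and Slc16a3 on chromosome 11, from 120948480 to 120960868, both on the plus strand.

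**Figure D3:**
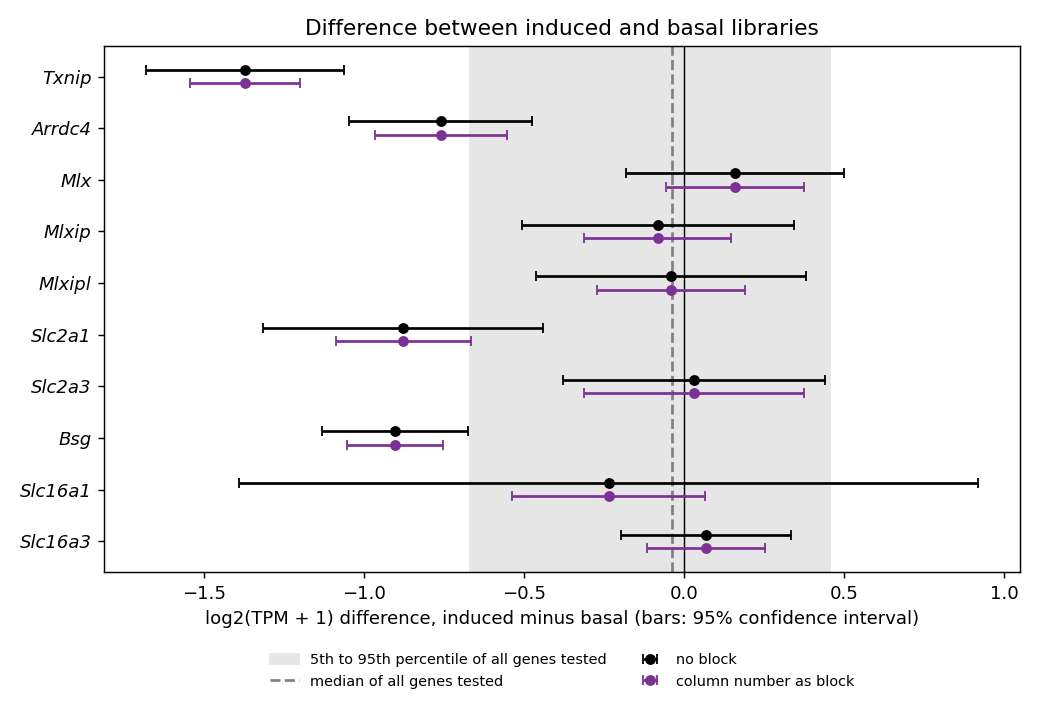
Difference on the log2(TPM + 1) scale, induced minus basal (horizontal axis), with 95% confidence intervals from limma without a block (black) and with the column number as a block (purple). The grey band holds the 5th to 95th percentile of all genes tested, and Txnip, Bsg, Slc2a1 and Arrdc4 lie to its left, between -1.37 and -0.76.

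The signs of Mlxip, Mlxipl and Slc16a1 depended on how the libraries were scaled. Mlx, Slc2a3 and Slc16a3 were positive under all 4 scales run, and the difference of Txnip, Arrdc4, Slc2a1 and Bsg was negative under all 4. The log2 changes in the authors' deposited DESeq2 table lie a median of 0.43 above those of the same 195 genes here. Moving the induced libraries by that offset brought the median of all genes tested to 0.39, and 19% of all genes were then called higher and 1% lower. On that scale Txnip was at -0.94 and Bsg at -0.48 and both passed (limma adjusted p = 0.0170 for Txnip and 0.0249 for Bsg). Arrdc4 was at -0.33 and Slc2a1 at -0.45, and neither passed (limma adjusted p = 0.0875 for Arrdc4 and 0.117 for Slc2a1). Mlx was at 0.59 and Slc16a3 at 0.50 and both passed upward (limma adjusted p = 0.0347 for Mlx and 0.0303 for Slc16a3). The authors' DESeq2 table itself lists neither Mlx nor Slc16a3. The fit with the offset called 2476 genes, where that table holds 195. Relative to the median of all genes the members kept their places, since the same offset was added to each.

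**Figure D4:**
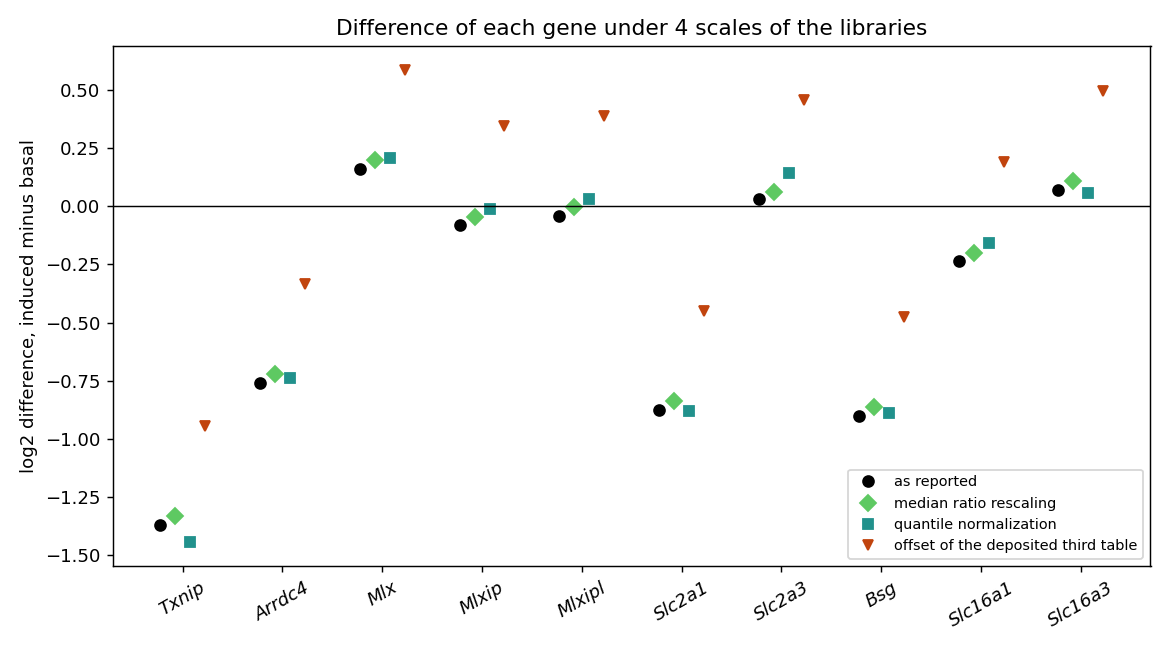
Difference of each gene, induced minus basal, on the log2 scale (vertical axis) as reported and under 3 other scales of the libraries. The scale of the authors' DESeq2 table (orange triangles) lies above the others for all 10 genes, and Txnip stays lowest, between -1.44 and -0.94.

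The authors' own tests listed Txnip, Arrdc4, Slc2a1 and Bsg, but no deposited table listed all of them. Bsg was absent from the Cuffdiff table, the longest, with 1548 entries. By their titles the cutoffs are unlike: a q of 0.05 for Cuffdiff, a p of 0.05 for DESeq2 and a B score for limma. Presence in a table therefore does not compare the tests. The authors' deposited tables rest on the same 6 libraries and are no separate evidence. The authors' deposited Cuffdiff table lists Txnip at a log2 change of -1.36 (126 FPKM induced, 323 FPKM basal; q = 4.1e-04), Slc2a1 at -0.83 (q = 4.1e-04) and Arrdc4 at -0.75 (q = 0.0176). The authors' deposited DESeq2 table lists Txnip at -0.96 (adjusted p = 7.8e-14), Bsg at -0.48 (adjusted p = 1.1e-18) and Slc2a1 at -0.44 (adjusted p = 0.0263). The authors' deposited limma table lists Txnip at -1.37 (adjusted p = 0.0114), Bsg at -0.90 (adjusted p = 0.0160) and Arrdc4 at -0.76 (adjusted p = 0.0473). Txnip was thus the 1 member named by all 3 of the authors' deposited tables, and Txnip and Bsg stand in the authors' deposited core list.

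Other genes of the pathway were taken from 7 lists holding 75 genes, of which 47 reached the level tested. None passed the threshold in limma (0 higher, 0 lower), and the smallest adjusted p among those named below was 0.0630, for Slc2a5. With the block 4 rose and 10 fell, beside the 8.23% of all genes called higher and 14% called lower in that fit, and nothing is read from the lists' counts with the block. The statements that follow give values, with the lists' median log2 differences to be set against the -0.04 of all genes tested.

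Of the other alpha-arrestins, 3 of 4 were tested, all with negative log2 differences and a median of -0.47, and 2 passed with the block. Arrdc3, an arrestin that aids the breakdown of adrenergic receptors, had 25.6, 26.6 and 12.6 TPM in induced cells and 61.7, 55.2 and 35.8 TPM in basal cells. These groups did not overlap, at a log2 difference of -1.23 (SE 0.33; limma adjusted p = 0.139, and 2.2e-04 with the block). Arrdc2 averaged 13.6 ± 1.41 TPM in induced and 19.3 ± 1.42 TPM in basal cells (SD, n = 3 each; limma adjusted p = 0.188, and 0.0201 with the block).

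Other known targets of MondoA and ChREBP did not pass in either direction. Of 12 tested, 5 were negative and the median log2 difference was 0.03. Khk, which encodes ketohexokinase, the enzyme that phosphorylates fructose, averaged 1.76 ± 0.848 TPM in induced and 3.88 ± 1.49 TPM in basal cells (SD, n = 3 each; limma adjusted p = 0.296, and 0.0361 with the block). Mid1ip1, a partner of acetyl-CoA carboxylase, averaged 76.1 ± 13.8 TPM in induced and 104 ± 19.1 TPM in basal cells (SD, n = 3 each; limma adjusted p = 0.355, and 0.0166 with the block). With the block 3 genes of this list fell and 1 rose. The other partners of Mlx, which compete with the Mondo proteins, were all negative, with a median of -0.45 over 3 genes. Mxd1 averaged 4.24 ± 1.19 TPM in induced and 7.72 ± 2.04 TPM in basal cells, and Mnt 22.5 ± 1.72 TPM in induced and 28.4 ± 0.442 TPM in basal cells (SD, n = 3 each; limma adjusted p = 0.227 for Mxd1 and 0.309 for Mnt). With the block all 3 fell (limma adjusted p = 0.00523 for Mxd1 and 0.0450 for Mnt).

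The partners and regulators of TXNIP had a median log2 difference of -0.10 over 9 tested genes. Txn2, the mitochondrial thioredoxin, averaged 90.2 ± 2.22 TPM in induced and 71.3 ± 9.28 TPM in basal cells, and Prkag1, a subunit of the kinase AMPK, 69.0 ± 3.86 TPM in induced and 63.3 ± 2.21 TPM in basal cells (SD, n = 3 each; limma adjusted p = 0.315 for Txn2 and 0.746 for Prkag1). With the block Txn2 alone passed (limma adjusted p = 0.0386).

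Among the other glucose transporters 4 of 11 were tested, with a median log2 difference of 0.17, and with the block 2 rose and 1 fell. Slc2a5, the fructose transporter GLUT5, had 51.9, 44.8 and 51.7 TPM in induced cells and 30.8, 27.4 and 30.3 TPM in basal cells. Every induced library was above every basal one, at a log2 difference of 0.73 (SE 0.14; limma adjusted p = 0.0630, and 0.00115 with the block). Slc2a6, another member of the family, which is named after its values were seen, averaged 6.86 ± 1.65 TPM in induced and 4.08 ± 0.235 TPM in basal cells (SD, n = 3 each; limma adjusted p = 0.187, and 0.0188 with the block). Slc2a9, a urate transporter of the same family, averaged 12.5 ± 1.46 TPM in induced and 19.0 ± 1.65 TPM in basal cells (SD, n = 3 each; limma adjusted p = 0.143, and 0.00865 with the block). Slc2a4, the insulin-responsive transporter GLUT4, was too low to be tested, at 0.174 ± 0.0385 TPM in induced and 0.695 ± 0.0640 TPM in basal cells (SD, n = 3 each). It is named here after its values were seen, because it passed when no filter was used (log2 difference -0.53, limma adjusted p = 0.0287). Slc2a4 was below 1 TPM in every library, where the added 1 shrinks both the difference and the spread.

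Of the other monocarboxylate transporters and embigin, the alternative chaperone of MCT1, 7 of 15 were tested. The median log2 difference was 0.21, and with the block 0 passed either way. Emb, which encodes embigin, averaged 25.3 ± 5.39 TPM in induced and 19.7 ± 2.63 TPM in basal cells (SD, n = 3 each; limma adjusted p = 0.529). Genes of glucose phosphorylation and of lactate and pyruvate handling had a median of -0.11 over 9 tested genes. Hk2, the inducible hexokinase, had 187, 151 and 122 TPM in induced cells and 293, 267 and 236 TPM in basal cells. Its groups did not overlap, at a log2 difference of -0.80 (SE 0.18; limma adjusted p = 0.103, and 6.4e-04 with the block), which made it the 1 gene of this list past the threshold with the block. Pdk2, a kinase that restrains pyruvate dehydrogenase, averaged 14.4 ± 1.77 TPM in induced and 16.7 ± 2.32 TPM in basal cells (SD, n = 3 each; limma adjusted p = 0.689).

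**Figure D5:**
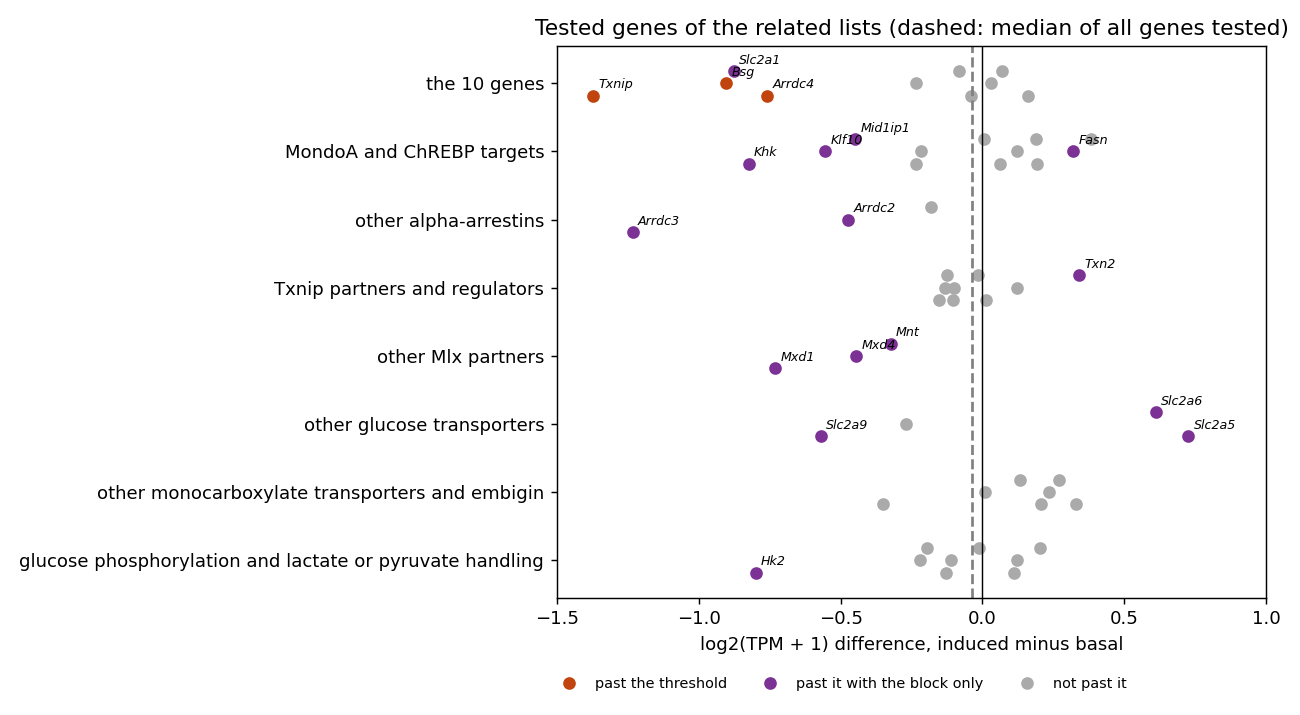
Difference on the log2(TPM + 1) scale, induced minus basal (horizontal axis), of the tested genes of the 10 described here and of 7 related lists, 1 point per gene. Genes that passed the limma threshold are orange, those that passed with the block alone are purple and named, and the dashed line is the median of all genes tested.

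The genes whose levels ran most like those of Txnip over the 6 libraries were Srd5a1, Phldb2, Tmem132b, E2f8 and Snhg1, with Pearson correlations between 0.994 and 0.999 on the log2(TPM + 1) scale. Such likeness was common: 284 of the 12397 genes compared, or 2.29%, had a correlation over 0.95. Phldb2, a membrane-binding protein, had 26.8, 22.9 and 23.2 TPM in induced cells and 58.2, 49.2 and 52.0 TPM in basal cells. Among the members the correlation with Txnip was 0.98 for both Arrdc4 and Bsg and 0.94 for Slc2a1, and it was 0.37 or lower for the other 6. These correlations share the same libraries and the same difference between groups, and are given as a description.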

How the data were processed

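The libraries, 3 induced and 3 basal, were prepared by AmpliSeq Library PLUS, a kit that amplifies stretches of transcripts, and shared 1 lane, per the labels' protocols. Per the submitters' processing notes, the authors' tools included TopHat2 2.0.9 with Bowtie2 2.1.0.0, then Cuffdiff and Cufflinks (both 2.2.0), limma and DESeq2, on mm10. Their settings, annotation and use of strand were found in no source used here. Although its sheet is titled FPKM, every deposited column of the main table totals 1000000, so the values are TPM. They keep no depth, so no counting interval could be given, and levels from amplicons are not compared between genes. The authors' deposited tables of tests hold group FPKM, log2 fold changes, p-values or q-values and a limma B score, per the file headers. Date numbers stood in place of 27 gene names in the main sheet.

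Genes averaging 1 TPM or more were kept and log2(TPM + 1) was tested in R 4.3.3 with limma 3.58.1 (mean-variance trend, Benjamini-Hochberg adjustment over 12400 genes, threshold 0.05). The fit was also run on simulated data in which each library varied independently, and no conclusion is drawn from that run. Members and lists were chosen with earlier results of these data known. The rule names Pam, the members, up to 2 genes of each list per direction among those past the threshold (where none passed, the 2 with the smallest p), and the 5 genes most correlated with Txnip; 1 gene that the rule names is not reported here. The authors' DESeq2 table, one of the tables deposited by the authors, gave an offset and the values printed as its own. Other alternatives were a pseudocount of 0.1, no filter or a filter at 5 TPM, quantile normalization, median ratio rescaling, no trend, each library left out, and the column number as a block; leaving out both libraries numbered 3 was added after seeing the data. Column names bear numbers 1 to 3 while the labels bear letters, so each column was assigned to its group and to no single sample. Deviations from group means correlated between same-numbered libraries (0.46, 0.18 and 0.72 for numbers 1, 2 and 3). All were over 0.1, so the numbers were used as a block in an alternative fit, while the main fit has no block. Induced 2 correlated more with basal 1 (0.32) than with basal 2, and induced 1 correlated with basal 2 at 0.28. The block was thus chosen from these same data, and no label ties the numbers to a shared origin. Gene positions are from GENCODE vM21 and promoters from RefSeq (GRCm38.p6).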

Additional observations from a re-analysis of the deposited data

How the results depend on the processing

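The number of members called lower was 3 as reported and 4 with the replicate block, 1 after median ratio rescaling, and between 0 and 3 when a single library was left out. It was 0 without any library other than induced 3, in fits of limma that called 0 to 15 genes in all, with 1130 to 1562 genes at an unadjusted p under 0.05, and that have fewer samples. The number called higher was 0 except on the scale of the authors' DESeq2 table, where it was 2 (Mlx and Slc16a3, which that table does not list). The median log2 difference of the members, -0.16, became -0.24 with a filter at 5 TPM (which drops Slc2a3), -0.0845 after quantile normalization, 0.27 on the scale of the DESeq2 table, and -0.0670 without both libraries numbered 3; with single libraries left out it ran from -0.386 to 0.0397, turning positive without basal 1 and without induced 3. Mlxip turned to 0.34 on the DESeq2 scale and ran from -0.224 to 0.00786 with single libraries left out. Mlxipl turned to 0.39 on that scale, 0.0322 after quantile normalization and 0.00872 without both libraries numbered 3, and ran from -0.159 to 0.0950 with single libraries left out. Slc16a1 turned to 0.19 on the DESeq2 scale and ran from -0.57 to 0.29, and Slc2a3 ran from -0.0573 to 0.120. Genes of the related lists past the threshold numbered 0 as reported, 14 with the replicate block, 10 on the DESeq2 scale, 3 without both libraries numbered 3 and 1 without a filter. Apart from what the construction of an alternative gives, the cause was not tested. Txnip, Arrdc4, Slc2a1 and Bsg were negative under all 15 alternatives, a direction that groups without overlap fix in part. Over all genes, limma called 148 as reported, 2761 with the block, 2476 on the DESeq2 scale, 688 without both libraries numbered 3, and 0 to 255 with single libraries left out.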
